A study of Saccharomyces cerevisiae with 25 samples.

Results

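The secreted acid phosphatases of budding yeast, PHO5, PHO11, PHO12 and PHO3, were followed in cells deprived of phosphate for 6 hours. The members were taken by gene name, and all 4 were found among the 6648 named rows of the deposited expression table. The cells were Saccharomyces cerevisiae of strain BY4741, a haploid laboratory strain of a mating type, with YFP (a fluorescent reporter) behind the PHO84 promoter (pho84pr-YFP) and the phm3 damp allele. PHM3 is an older name of VTC4, a polyphosphate synthase subunit, and DAmP alleles disturb the end of a transcript so that its amount usually falls. All 25 samples carried both alleles, 1 sample came from high-phosphate medium at 0 min, and 24 came from medium without phosphate, every 15 min from 15 to 360 min. No strain without the phm3 allele was analysed here, and each time was measured in 1 library, so every contrast is one of times within this strain.

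Secreted acid phosphatases sit outside the plasma membrane and release phosphate from organic esters that the cell cannot take up whole. When phosphate runs short, the inhibitor Pho81 holds back the kinase pair Pho80 and Pho85, and the transcription factor Pho4 stays in the nucleus and activates its targets together with Pho2. PHO5 encodes the main repressible acid phosphatase, and remodelling of nucleosomes at its promoter is a textbook case of chromatin control. PHO11 and PHO12 encode further repressible enzymes and lie near chromosome ends, whereas PHO3, the neighbour of PHO5, encodes an acid phosphatase that is made in phosphate-rich cells and also cleaves thiamine phosphates.

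In the R64 genome (RefSeq annotation), PHO5 (YBR093C) occupies bases 429548 to 430951 of chromosome II on the minus strand. PHO3 (YBR092C) follows it on the same strand at 427698 to 429101, with 446 bases between their coding sequences. PHO11 (YAR071W) lies at 225460 to 226863 of chromosome I, 3355 bases from the right end, and PHO12 (YHR215W) at 552099 to 553502 of chromosome VIII, 9141 bases from the right end, both on the plus strand. Each coding sequence has 1404 bases, so RPM values (reads of a gene scaled to a fixed library total) need no correction for coding length between these genes. The division of shared reads, described below, still limits such comparisons.

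The sequences upstream of the start codons are shown because they set PHO3 apart from the other members. Each run covers the 300 bases from 430 to 131 before the start codon, read from the R64 genome 5′ to 3′ on the gene's strand. Capitals mark CACGTG, the palindromic Pho4 motif, and CACGTT, a second Pho4 motif, searched on both strands and without overlap with each other.
PHO5, chrII:431082-431381, minus strand: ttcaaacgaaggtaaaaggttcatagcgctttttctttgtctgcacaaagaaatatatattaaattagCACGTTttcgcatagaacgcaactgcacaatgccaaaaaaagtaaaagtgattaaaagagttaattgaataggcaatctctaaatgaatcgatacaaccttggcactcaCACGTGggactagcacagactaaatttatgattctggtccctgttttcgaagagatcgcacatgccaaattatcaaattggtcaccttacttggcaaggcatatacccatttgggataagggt
PHO11, chrI:225030-225329, plus strand: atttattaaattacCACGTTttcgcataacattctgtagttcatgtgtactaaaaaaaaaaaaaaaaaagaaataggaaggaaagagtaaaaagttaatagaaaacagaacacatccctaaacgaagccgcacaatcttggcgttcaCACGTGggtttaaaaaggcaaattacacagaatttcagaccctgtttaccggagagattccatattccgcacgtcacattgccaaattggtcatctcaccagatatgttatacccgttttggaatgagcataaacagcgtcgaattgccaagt
PHO3, chrII:429232-429531, minus strand: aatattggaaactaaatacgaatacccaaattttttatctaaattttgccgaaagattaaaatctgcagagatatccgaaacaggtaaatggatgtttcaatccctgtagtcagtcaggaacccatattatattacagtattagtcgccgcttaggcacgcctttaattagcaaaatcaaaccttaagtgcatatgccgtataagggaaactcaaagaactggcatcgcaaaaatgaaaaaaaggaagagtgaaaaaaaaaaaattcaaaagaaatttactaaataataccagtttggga
PHO5 held CACGTT from base -362 and CACGTG from base -253, counted from -1 at the base before the start codon. PHO11 held the same pair at -416 and -283, and PHO12 at -418 and -283. PHO3 held neither in this window. Of 6001 windows of the same length and position in the genome, 281 (4.68%) held CACGTG, 615 (10.2%) held CACGTT and 38 (0.633%) held both. Either motif or both stood in 858 windows (14.3%). Among 19 other genes listed as Pho4 targets, 14 held at least one of the motifs and 3 held both, but these genes are known as targets partly from such motifs. A match is a description of letters and not a measured binding site.

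**Figure D1:**
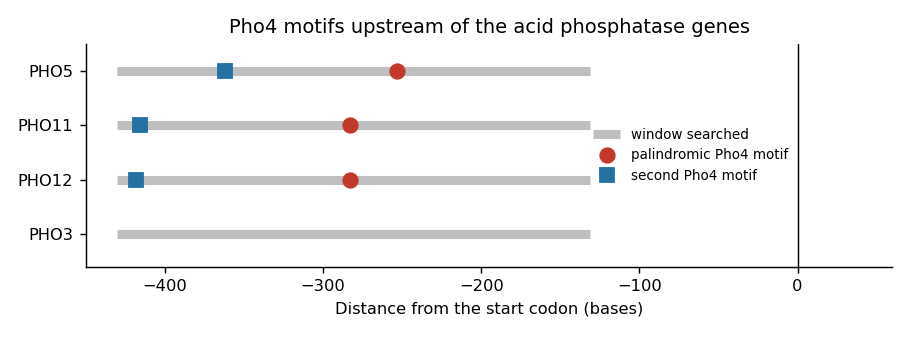
Positions of the Pho4 motifs upstream of the 4 genes; the horizontal axis is the distance from the start codon in bases, grey bars are the 300 bases searched, circles mark CACGTG and squares CACGTT. PHO5, PHO11 and PHO12 each show a circle and a square, and PHO3 shows neither.

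PHO11 and PHO12 differed at 4 of 1404 coding positions (99.7% identical), with an identical run of 786 bases, and their upstream sequences were the same for 361 bases before the start codon. Counted from the A of the start codon with the PHO11 base first, the differences are A273G, A1060C, C1245T and A1268G. The first and the last of them are printed with 15 bases on each side, since reads over such sites are the ones that can tell the genes apart; capitals mark the differing base.
PHO11 at A273G, chrI:225717-225747, plus strand: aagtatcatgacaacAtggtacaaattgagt
PHO12 at A273G, chrVIII:552356-552386, plus strand: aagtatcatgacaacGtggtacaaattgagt
PHO11 at A1268G, chrI:226712-226742, plus strand: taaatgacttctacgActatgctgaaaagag
PHO12 at A1268G, chrVIII:553351-553381, plus strand: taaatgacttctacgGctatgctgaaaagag
PHO5 was 86.5% identical to PHO3, with a longest identical run of 98 bases, and 83.6% identical to PHO11. The deposited values carry the mark of these shared stretches. Converted back to reads, PHO5, PHO11 and PHO12 gave a whole number (within 0.02) in 0 of 25 libraries. PHO3 did so in 4 of the 24 that list it, and VTC4 and PHO84, chosen for comparison, in 25 of 25. Over all genes, only 38.5 to 78.5% of values with high read counts were whole, depending on the library. Under 200 reads that share was 94.9 to 97.5%. The 4 members added together gave a whole number in 19 of 24 libraries, so reads appear to have been divided among these genes. Levels of single members are therefore uncertain, PHO11 and PHO12 most of all, and the sum of the 3 repressible genes, taken on the RPM scale, is given beside them. That sum was itself whole in only 2 of 25 libraries, so reads divided with PHO3 can still affect it.

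Recovered depth ranged from 0.147 to 4.275 M reads per library (median 1.12 M), with 3 libraries under 0.5 M (270, 330 and 345 min). These depths assume that the lowest value listed in each library stands for 10 reads. In 5 libraries (75, 120, 255, 345 and 360 min) ADA2, a subunit of the SAGA coactivator, was listed at 7.83 to 8.92 log2 RPM, against 10.46 to 12.02 in the others. These libraries stand apart, and results that change without them are marked. VTC4, the gene of the DAmP allele, was at 6.40 log2 RPM at 0 min and ranged from 5.87 to 10.36, which does not check the allele without a library of the parent strain. The mating type a genes STE2, MFA1, MFA2 and BAR1 were listed in all 25 libraries. HIS3, LEU2 and MET17, deleted in BY4741, were listed in 0, but URA3, also deleted there, was listed in 13 libraries at 2.52 to 4.71. The alpha genes STE3 and MF(ALPHA)1 were listed in 23 libraries at 4.26 to 5.32 and in 8 at 2.14 to 3.30, and MF(ALPHA)2 in 0.

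In high phosphate the members stood within 1 log2 unit of each other. PHO12 was at 8.54 log2 RPM and PHO5 at 8.50, with overlapping 95% counting intervals (8.47 to 8.61 and 8.43 to 8.57). PHO3 followed at 7.86 (7.76 to 7.95) and PHO11 at 7.68 (7.58 to 7.78), again overlapping. These intervals cover counting error only, in a single library. PHO3 made up 19.8% of the reads of the 4 genes at 0 min.

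The repressible genes, summed, rose to 60 min, stood lower at 105 and 120 min and rose again to 180 min. PHO5 ended 20.1-fold above its high-phosphate level. The sum of PHO5, PHO11 and PHO12 stood at 9.88 log2 RPM at 0 min, or 0.094% of all reads, and reached 13.75 (1.381% of reads) at 300 min. In bulk RNA, more cells with the transcript and more transcript per cell cannot be told apart, and RPM gives shares of a library, not amounts. Over the windows of 15-90, 105-180, 195-270 and 285-360 min the sum averaged 11.62 ± 0.59, 12.45 ± 0.90, 13.51 ± 0.05 and 13.63 ± 0.07 log2 RPM (SD, n = 6 consecutive libraries each). The spread was wide while the levels moved and narrow in the later windows.

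**Figure D2:**
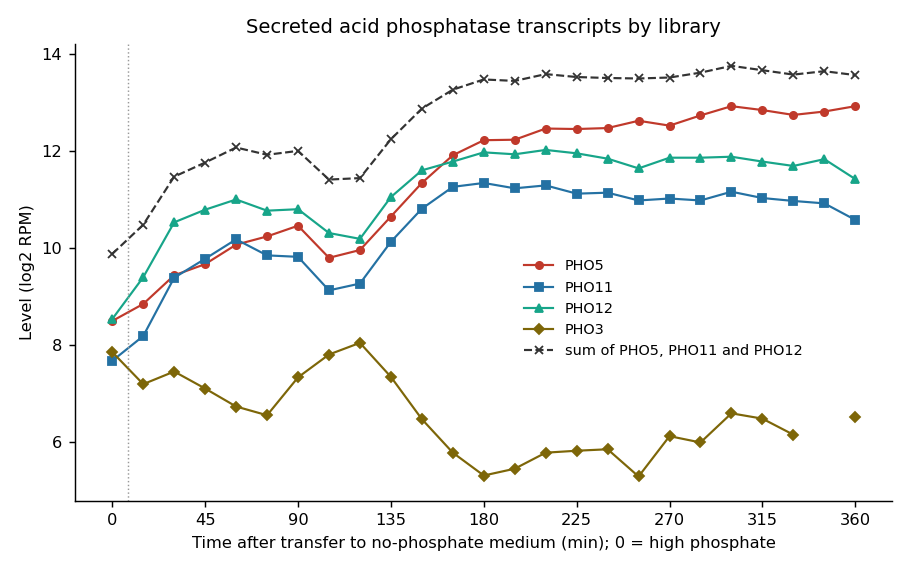
Level of each member in every library (vertical axis, log2 RPM) against time after transfer to no-phosphate medium (horizontal axis, min; 0 is high phosphate); each point is 1 library, and the dashed line is the sum of PHO5, PHO11 and PHO12. The sum rises from 9.88 to 12.07 by 60 min, stands at 11.41 at 105 min and at 13.47 by 180 min, while PHO3 moves from 8.05 at 120 min to 5.32 at 180 min.

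PHO5 was at 9.44, 9.67 and 10.07 log2 RPM at 30, 45 and 60 min, at 9.80, 9.96 and 10.65 at 105, 120 and 135 min, at 11.91, 12.22 and 12.23 at 165, 180 and 195 min, and at 12.73, 12.92, 12.84 and 12.74 from 285 to 330 min. In its windows the lowest, median and highest libraries were 8.85, 9.87 and 10.46, then 9.80, 10.99 and 12.22, then 12.23, 12.46 and 12.62, and last 12.73, 12.82 and 12.92. Only the first 2 windows of PHO5 overlapped, and all 6 of its last libraries stood above every earlier one. The means of its last 2 windows differed by only 0.37, and the share of all genes whose windows part in this way was not counted.

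PHO11 was at 9.39, 9.78 and 10.18 log2 RPM at 30, 45 and 60 min, at 9.13, 9.27 and 10.13 in the lull (105 to 135 min), at 11.26, 11.34 and 11.23 from 165 to 195 min, and at 10.98, 11.16, 11.03 and 10.97 from 285 to 330 min. PHO12 was higher than PHO11 throughout, at 10.53, 10.79 and 11.00, then 10.31, 10.19 and 11.05, then 11.78, 11.97 and 11.93, and last 11.86, 11.88, 11.78 and 11.69 at the same times. PHO11 was highest at 180 min and PHO12 at 210 min, and at 345 min they stood at 10.92 and 11.83. The 360 min library, one of those with low ADA2, gave lower values of 10.58 (PHO11) and 11.42 (PHO12). Their last windows overlapped the ones before, with medians of 10.97 and 11.13 for PHO11 and of 11.81 and 11.90 for PHO12.

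The first step was tested as 30-60 min against 0 min with limma, a linear model with variance shared over 4742 genes; a gene was called at an adjusted p under 0.05 and a log2 difference of at least 1. All 3 repressible genes were called higher, where 3.40% of all genes were. PHO12 rose by 2.23 ± 0.28 (log2 difference ± SE, 4.7-fold, limma adjusted p = 0.000507) and PHO11 by 2.11 ± 0.33 (4.3-fold, 0.0024). PHO5 rose less, by 1.23 ± 0.30 (2.34-fold, limma adjusted p = 0.0316), and its call was lost without the 45 min library (1.25, adjusted p = 0.0726) or the 60 min library (1.05, 0.0791). The sum rose by 1.89 ± 0.29 (limma adjusted p = 0.00235), against a median of 0.12 over all genes. The 0 min group is 1 library, assumed to vary like the others, and the p-values here measure scatter between consecutive libraries, since the labels do not say whether these were separate cultures.

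Between the steps, at 105-135 against 30-60 min, none of the 4 members was called, where 2.07% of genes (98) were called in either direction; without the 135 min library that count was 210, without the 45 min library 41 and without the 120 min library 46. The differences were 0.41 for PHO5, -0.28 for PHO11, -0.26 for PHO12 and -0.07 ± 0.21 for the sum (limma adjusted p from 0.262 to 0.874). From 90 to 105 min the sum went from 12.00 to 11.41 and PHO11 from 9.82 to 9.13, a drop seen in single libraries. The sum was at 11.44 at 120 min, a library of low ADA2. At 135 min it stood at 12.24, above every library before it, so the lull rests on the libraries at 105 and 120 min.

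The second step, at 165-195 against 105-135 min, called all 3 repressible genes higher, where 11.7% of genes were. PHO5 rose by 1.99 ± 0.21 (3.96-fold, limma adjusted p = 5.8e-06), PHO11 by 1.77 ± 0.23 (3.41-fold, 2.77e-05) and PHO12 by 1.38 ± 0.20 (2.6-fold, 5.58e-05). The sum rose by 1.70 ± 0.21 (limma adjusted p = 1.54e-05), or by 1.38 beyond the median of all genes, which was itself 0.31. These calls held in the 33 alternative settings run for this comparison, the sum between 1.45 and 2.05. Settings that left out a library outside both phases could not move the differences, so that number overstates the check. By size alone PHO12 and PHO11 led the first step and PHO5 the second. The limits of the phases were chosen with earlier results of these data known, and the p-values do not allow for that choice.

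After the second step PHO5 differed most among the repressible genes. At 285-330 against 165-195 min it was 0.69 ± 0.20 higher (limma adjusted p = 0.0353), which is under the fold threshold, against -0.24 ± 0.22 for PHO11, -0.09 ± 0.19 for PHO12 and a median of 0.09 over all genes; 2.40% of genes were called.

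**Figure D3:**
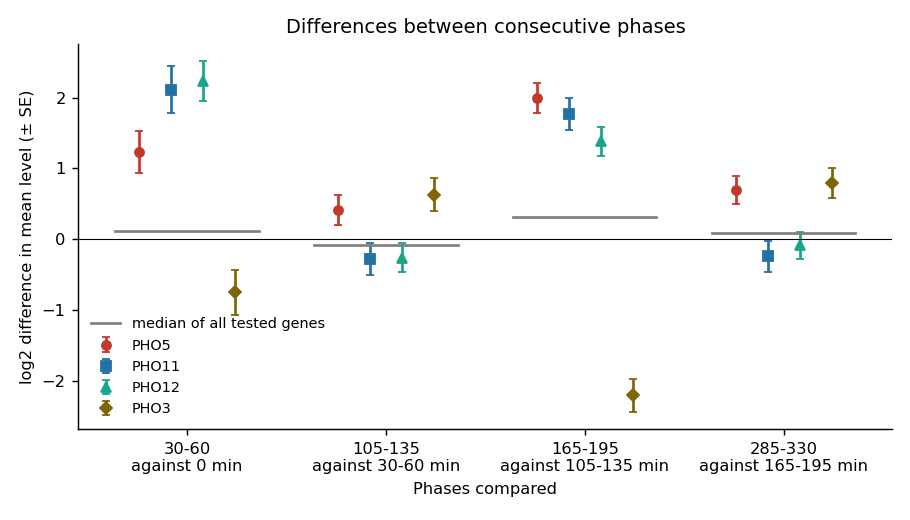
Log2 difference of each member between successive phases (vertical axis) with the limma standard error as bars; the horizontal axis gives the 4 comparisons, 30-60 against 0, 105-135 against 30-60, 165-195 against 105-135 and 285-330 against 165-195 min. Grey lines are the median of all tested genes. PHO3 lies at -2.21 where PHO5 lies at 1.99, and at 0.63 in the lull.

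Over the whole course the 3 genes ended well above both reference points. Against 0 min, the last window (285-360 min) was higher by 4.33 ± 0.58 for PHO5 (20.1-fold, limma adjusted p = 2.75e-05), 3.26 ± 0.60 for PHO11 (9.58-fold, 0.000575) and 3.20 ± 0.49 for PHO12 (9.2-fold, 9.62e-05), where 20.1% of all genes were called higher. The median of all genes in that comparison was 0.47. Against 15-90 min the last window was higher by 3.04 ± 0.31 for PHO5 (8.22-fold, limma adjusted p = 7.61e-08), 1.40 ± 0.32 for PHO11 (0.000927) and 1.19 ± 0.26 for PHO12 (0.000646), where 12.9% of genes were called. The PHO12 difference fell to 0.97, under the fold threshold, without the 15 min library, and with each sample centred on its median PHO11 (1.00) and PHO12 (0.79) both lost the call. Of neighbouring windows, 195-270 against 105-180 min called PHO5 (1.48 ± 0.31, limma adjusted p = 0.00109) and the sum (1.06 ± 0.29, 0.00761), where 5.08% of genes were called higher. The call of the sum was lost without the 105 min library (0.85), the 120 min library (0.86) or the 5 libraries of low ADA2 (0.86). PHO11 (0.81 ± 0.32) and PHO12 (0.73 ± 0.26) stayed under the fold threshold there.

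The first and the last neighbouring windows gave no call among the members. At 15-90 against 0 min, where 0.148% of genes were called, the sum differed by 1.74 ± 0.54 (limma adjusted p = 0.617) and PHO12 by 2.01 ± 0.49 (0.151); without the 15 min library PHO12 was called (2.24, adjusted p = 0.0163). At 105-180 against 15-90 min PHO5 differed by 1.19 ± 0.31 (limma adjusted p = 0.407), the second highest of 4742 genes, in a comparison that called 0% of genes (234 had an unadjusted p under 0.05). At 285-360 against 195-270 min 0% were called (610 with an unadjusted p under 0.05), and the sum differed by 0.12 ± 0.29. PHO5 differed by 0.37 ± 0.31 there (limma adjusted p = 0.66). A smooth fit of time over the no-phosphate libraries called all 4 members, where 39.4% of genes were called, with a fitted range of 3.60 for PHO5, 2.16 for PHO11, 1.75 for PHO12 and 1.91 for PHO3.

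The make-up of the repressible set shifted from PHO12, which held the largest share from 15 to 150 min, to PHO5. PHO5 held 38.5% of the reads of the 3 genes at 0 min (Wilson 95% interval 37.0 to 40.0), 23.5% at 45 min (22.4 to 24.5) and 64.5% at 360 min (63.3 to 65.6). PHO12 held 39.7% at 0 min, 52.1% at 30 min and 22.8% at 360 min. Its level was above that of PHO5 in 11 libraries, from 0 to 150 min, and below it in the 14 from 165 to 360 min. In the 15-90 min window the order was PHO12 (10.55 ± 0.58), PHO5 (9.79 ± 0.59) and PHO11 (9.54 ± 0.70), with PHO5 and PHO11 inside each other's spread. In the last window it was PHO5 (12.83 ± 0.08), PHO12 (11.74 ± 0.17), PHO11 (10.94 ± 0.19) and PHO3 (6.35 ± 0.26, n = 5), and no neighbours in that order overlapped.

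**Figure D4:**
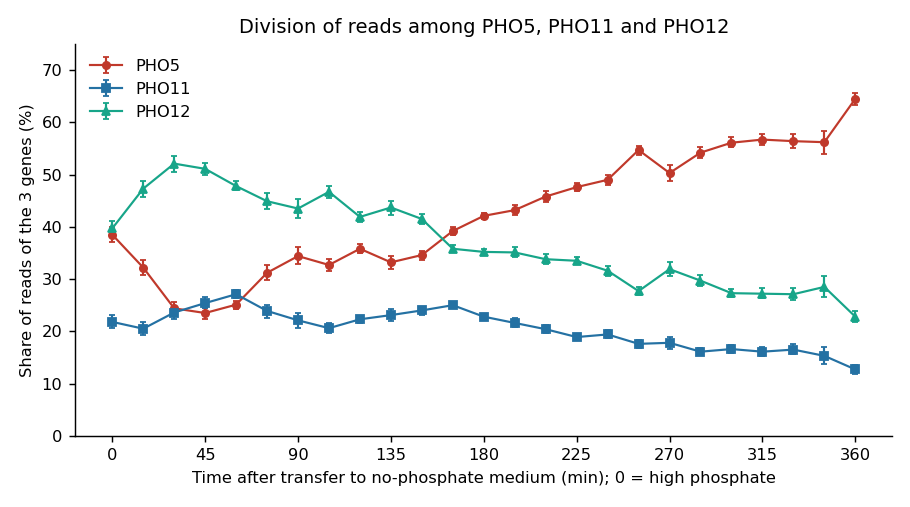
Share of the reads of PHO5, PHO11 and PHO12 held by each gene (vertical axis, percent) against time (horizontal axis, min), 1 library per point, with Wilson 95% intervals that cover counting error only. PHO5 goes from 23.5% at 45 min to 64.5% at 360 min, and PHO12 from 52.1% at 30 min to 22.8%.

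The log2 ratio of PHO5 to PHO11 and PHO12 together averaged -1.34 ± 0.33, -0.82 ± 0.23, -0.09 ± 0.23 and 0.43 ± 0.22 in the successive windows (SD, n = 6 each). Between neighbouring windows it rose by 0.53, 0.73 and 0.52 (exact two-sided permutation tests, p adjusted over 12 ratio tests = 0.0208, 0.013 and 0.013). The windows overlapped in the first and the last of these steps. Permutation treats consecutive libraries as exchangeable, so these p-values do not tell steps from a steady drift. From the first window to the last the ratio rose by 1.77 (3.42-fold, exact permutation adjusted p = 0.013), with no overlap between windows. The unadjusted p, 0.00216, is the smallest that 6 against 6 libraries can give. Without the 5 libraries of low ADA2 the first of these steps missed the threshold (0.57, exact permutation adjusted p = 0.0635), and without the 3 shallow libraries the last did (0.57, 0.0544).

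Within the PHO11 and PHO12 pair, the ratio of PHO11 to PHO12 stayed between 0.433 and 0.697 in all 25 libraries. Its log2 value was higher by 0.21 in the last window than in the first (exact permutation adjusted p = 0.026), and missed the threshold without the low-ADA2 libraries (0.26, 0.0635). Steps between neighbouring windows were 0.19, 0.08 and -0.06 (exact permutation adjusted p from 0.167 to 0.452). Since 4 coding bases tell these genes apart, the ratio can depend on how shared reads were divided, which was not tested.

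PHO3 moved against the other members most clearly in its fall from 120 to 180 min. It was at 7.86 log2 RPM at 0 min, and at 7.20, 7.46, 7.11, 6.74, 6.56 and 7.34 from 15 to 90 min. It then stood at 7.81, 8.05 and 7.35 in the lull, and at 6.48, 5.79 and 5.32 at 150, 165 and 180 min. Its highest library of all, at 120 min, is one of those with low ADA2, and in it the sum of the repressible genes was the second lowest after 15 min. The windows after that held 5.46, 5.79, 5.83, 5.86, 5.30 and 6.13 (195 to 270 min), then 6.00, 6.60, 6.49, 6.16 and 6.52. There was no value at 345 min, where the lowest listed level of any gene was 6.09.

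At 165-195 against 105-135 min PHO3 fell by 2.21 ± 0.23 on the log2 scale (4.64-fold, limma adjusted p = 4.93e-06), where 7.99% of genes were called lower. It ranked 6 from the lowest of 4742 genes, and the median of all genes was 0.31 higher. The difference stayed between -2.46 and -2.06 over the 32 alternative settings run for it (-2.06 without the low-ADA2 libraries, limma adjusted p = 2.98e-05). Here too, settings that left out a library outside both phases could not move it. The 3 libraries before (7.35 and above) and after (5.79 and below) did not overlap. The share of all genes whose phases part in this way was not counted. In the windows, 195-270 against 105-180 min gave -1.07 ± 0.33 (limma adjusted p = 0.0164), where 3.23% of genes were called lower. This wider comparison rested on single libraries: the call was lost without the library at 105 min (-0.87), 120 min (-0.82), 135 min (-0.96) or 255 min (-0.99), and without the low-ADA2 libraries (-0.74).

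Its other differences were smaller. PHO3 was not called at 30-60 against 0 min (-0.75 ± 0.32, limma adjusted p = 0.203), where 0.274% of genes were called lower, or in the lull (0.63 ± 0.23, 0.101). In the last phase it was 0.79 ± 0.21 higher than at 165-195 min (limma adjusted p = 0.0256), under the fold threshold. The last window was not called against 15-90 min (-0.71 ± 0.35, limma adjusted p = 0.0902) or against 0 min (-1.5 ± 0.63, 0.0709), where 3.40% and 4.05% of genes were called lower. With each sample centred on its median, both were called (-1.08, adjusted p = 0.0273, and -1.98, 0.0424), and the last also without the 120 or the 180 min library (-1.5 each, adjusted p = 0.0405 and 0.0312).

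PHO3 went from 19.8% of the reads of the 4 members at 0 min to 2.38% at 75 min, 8.71% at 120 min and 0.34% at 255 min. Its log2 ratio to PHO5, the adjacent gene, averaged -2.72 ± 0.80 in the first window (n = 6) and -6.48 ± 0.17 in the last (n = 5). That difference of -3.76, a 13.5-fold shift, left the windows without overlap (exact permutation adjusted p = 0.013; the unadjusted 0.00433 is the smallest possible). At 195-270 against 105-180 min the ratio differed by -2.55 (exact permutation adjusted p = 0.0297), a call lost when the library at 105, 120, 135, 150, 195, 210 or 255 min was left out, with values from -2.69 to -2.10. Step by step the opposition was loose: over 22 intervals of 15 min PHO3 and the sum moved in opposite directions in 12 and in the same direction in 10. The large rises of PHO3 to 90 min (0.78) and to 270 min (0.84) came with small rises of the sum (0.07 and 0.02). Counting by strand was not given in the sources used here, so reads antisense to PHO5 or PHO3 cannot be separated from sense reads. At 255 min PHO3 had 44.0 recovered reads beside 7048.3 of PHO5. How far the division of shared reads set the late PHO3 values and ratios was not tested.

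The course of the repressible sum was most like that of PHO89 among single genes. Over 25 libraries and among 2580 genes, Pearson's r on log2 RPM was 0.984 for PHO89, a sodium-dependent phosphate transporter, 0.977 for PHM6, 0.971 for PHM8, a phosphatase, 0.970 for GDE1, which cleaves glycerophosphocholine, and 0.969 for ATG22, a vacuolar amino acid exporter. PHO84, the high-affinity phosphate transporter, ranked 15 with r = 0.942. For PHO3 (24 libraries) the closest were RPG1, a subunit of translation initiation factor 3 (r = 0.946), SNU13 (0.943) and RRP5 (0.937), which act in ribosomal RNA processing, YEF3, a translation elongation factor (0.936), and IMD4, of guanine nucleotide synthesis (0.935). PHO3 against the sum gave -0.823. These libraries share one course in time and the scaling to a fixed total, so such correlations are descriptions.

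Beyond the acid phosphatases, 16 of 19 listed targets of Pho4 could be tested. At 30-60 against 0 min 11 of the 16 rose and 0 fell, where 3.40% of all genes were called higher, with a median difference of 1.33 against 0.12 over all genes; PHO84 rose by 2.30 ± 0.19 (limma adjusted p = 1.17e-05). In the lull 0 of 16 were called (2.07% of all genes). In the second step 7 rose (11.7% of all genes), with a median of 0.92 against 0.31. PHO89 rose there by 1.92 ± 0.25 (limma adjusted p = 2.25e-05), PHM6 by 1.94 ± 0.24 and PHM8 by 2.72 ± 0.28. PHO84, at 0.92 ± 0.14 (limma adjusted p = 7.22e-05), was under the fold threshold. In the last window against the first, 10 of 16 rose, where 12.9% of all genes did (median 1.26 against 0.36), led by PHM8 (2.76 ± 0.39), PHM6 (2.59 ± 0.32) and PHO89 (2.56 ± 0.32), with PHO84 at 1.29 ± 0.16. Beside these, PHO5 had 3.04 in that comparison, and PHO11 and PHO12 had 1.40 and 1.19; differences between these genes were not tested. All 16 rose in the last window against 0 min, where 20.1% of all genes did.

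Of the 5 signalling genes, PHO81 was higher already at 30-60 against 0 min (1.67 ± 0.25, limma adjusted p = 0.00152), and it was the 1 call of the list there (3.40% of all genes were called higher). In the second step, where 11.7% of all genes rose, 3 of 5 did: the kinase subunit PHO85 (1.01 ± 0.15, limma adjusted p = 6.81e-05), its cyclin PHO80 (1.04 ± 0.31, 0.0107) and PHO2, the partner of Pho4 (1.09 ± 0.29, 0.00556). In the last window against the first 0 of 5 were called (12.9% of all genes were called higher), with PHO81 at 0.98, PHO85 at 0.79 and PHO80 at 0.78. Of 14 chromatin cofactors of PHO5, 0 were called in that comparison or in any of the 4 phase comparisons. Of all genes, 3.40% were called higher and 0.274% lower in the first step, and 11.7% and 7.99% in the second. In either direction 2.07% were called in the lull and 2.40% in the last phase, so 0 of 14 is not far from most of these shares. In the last window against 0 min 3 of 14 were called higher (SNF2, SPT3 and ARP8), where 20.1% of all genes were, and over the course 5 of 14 (these and SNF5 and ESA1), where 39.4% were. Their largest differences in the last window against the first were 0.99 for SNF2 and 0.96 for SNF5, both of the SWI/SNF remodeller, and 0.86 each for ESA1, an acetyltransferase, and SPT3 of SAGA, just under the fold threshold; ADA2 differed by -0.58 ± 0.62 (limma adjusted p = 0.455).

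PHO3 is a thiamine-responsive gene, so the thiamine genes were counted beside it. Only 11 of 21 passed the filter on low values. None of them was called lower in any comparison. In the second step 7.99% of all genes were called lower, so that 0 of 11 is close to the share of all genes. SNZ2 was called higher there, by 1.54 ± 0.48 (limma adjusted p = 0.015), where 11.7% of all genes were. In the last window against the first 2 of 11 were called higher, not far from the 12.9% of all genes. The median difference of the list was 0.64, against 0.36 over all genes. The 2 were THI20 (1.13 ± 0.31, limma adjusted p = 0.00401) and SNZ2 (1.10 ± 0.40, 0.0266), of thiamine and vitamin B6 synthesis. The transporter THI7 was at 0.91 ± 0.19. THI5, THI11, THI12 and THI13, whose products make the pyrimidine part of thiamine, were listed in 2 to 8 libraries at no more than 3.74 log2 RPM. DIA3, a further gene of the acid phosphatase family, was listed in 17 libraries, at 1.60 to 5.40 log2 RPM.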

How the data were processed

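RNA of 25 yeast samples, isolated in 96-well format from lyticase-treated cells, was sequenced as cDNA on an Illumina instrument, per the labels' protocols. The submitters' processing notes name Bowtie and build R64. Counter, annotation and use of strand are not given in the sources used here. Values deposited by the authors are on a log2 scale. Raised as powers of 2 they sum to 1000000 per sample, so they were used as log2 RPM, although the series' design text describes values relative to 0 min. The lowest value in each sample was taken as 10 reads, and a missing value as fewer. Reads were recovered with this setting (whole within 0.02 in 94.9 to 97.5% of values under 200 reads). A lower true minimum could also give whole numbers, so the setting was not checked. Depths, recovered reads and counting intervals rest on it. Of 6701 rows, 51 had no name and 2 shared a name; these were left out.

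The 4742 genes listed at 0 min and in 4 or more of the 6 samples of every window were fitted with limma 3.58.1 (R 4.3.3): 4 windows of 6 samples and 0 min, phases of 3 or 4 samples, and a natural spline of time with 4 degrees of freedom. Adjusted p is Benjamini-Hochberg over all genes. Ratios between members were compared with exact permutation tests (scipy 1.17.1). Scripts were tested on simulated data. The members, lists and phases were chosen with earlier results of these data known. Named genes were the members, the 3 largest differences per list between the last and first windows, PHO84, PHO89, ADA2 and DIA3, and the 5 genes most correlated with the sum or with PHO3. A gene tied for the last place, PHO2 and SNZ2 in the second step, and ARP8, were added after their values were seen.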

Additional observations from a re-analysis of the deposited data

Results flagged for a closer look

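Of 32 groups of 5 or 6 libraries examined for a lone extreme value, 3 were flagged, and chance flags about 1 in 20. PHO12 at 15 min stood at 9.40 log2 RPM, below the other 5 libraries of its window (10.53 to 11.00). The sum of PHO5, PHO11 and PHO12 at 15 min stood at 10.48, below 11.47 to 12.07. Both are the first library after transfer, in a window in which levels were moving. The log2 ratio of PHO5 to PHO11 and PHO12 together at 360 min was 0.86, above 0.24 to 0.39 in the rest of its window; this library is one of the 5 with low ADA2 (8.45 log2 RPM here), and the part of that in the ratio was not tested.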

How the results depend on the processing

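For 67 results, 37 settings gave 2172 values, of which 2119 kept their direction and side of the threshold. A call was lost in 33 values and gained in 11, and 9 values reversed. Under none of the settings run did 49 results change. Many of the unchanged values come from leaving out a library that the comparison does not use. Such a run could not move the difference, so these counts overstate the check. Where a value changed, the cause was not tested unless stated. Values are log2 differences, and comparisons are named by their times in min.

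With missing values set to 0 RPM and log2(RPM + 1), PHO3 lost its call at 195-270 against 105-180 (-1.06) and over the course (fitted range 3.42), and PHO5 at 30-60 against 0 (1.22); PHO3 at 285-360 against 195-270 reversed to -0.44. With log2(RPM + 5) the same PHO3 comparisons gave -1.02 (call lost) and -0.11 (reversed), and the ratio of PHO3 to PHO5 at 285-360 against 195-270 reversed to -0.47. These reversals come from the 345 min library, where PHO3 was set to 0. Centring each sample on its median lowered PHO5 at 285-360 against 0 from 4.33 to 3.81. It took the call from the sum at 195-270 against 105-180 (0.78) and from PHO11 (1.00) and PHO12 (0.79) at 285-360 against 15-90, and gave one to PHO3 against 15-90 (-1.08) and against 0 (-1.98). Quantile normalization gave calls to PHO3 in the same comparisons (-1.08 and -1.89) and to PHO11 at 195-270 against 105-180 (1.09), and took that of PHO5 at 30-60 against 0 (0.90).

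Without the 5 libraries of low ADA2, calls at 195-270 against 105-180 were lost for PHO3 (-0.74), the sum (0.86) and the PHO3 to PHO5 ratio (-1.98). The ratio of PHO5 to PHO11 and PHO12 at 105-180 against 15-90 (0.57) and that of PHO11 to PHO12 at 285-360 against 15-90 (0.26) lost theirs, PHO3 gained one at 285-360 against 0 (-1.54), and the sum in the lull reversed to 0.06. Without the 3 shallow libraries the ratio calls of PHO5 to PHO11 and PHO12 at 285-360 against 195-270 (0.57), PHO11 to PHO12 at 285-360 against 15-90 (0.21) and PHO3 to PHO5 at 195-270 against 105-180 (-2.62) were lost; fewer libraries also raise the smallest p that permutation can give. With every second sample, the sum at 195-270 against 105-180 lost its call (1.18) and PHO3 at 105-180 against 15-90 reversed to 0.03.

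Leaving out single libraries gave these ranges for results whose call or sign changed. At 195-270 against 105-180 they were -1.37 to -0.82 for PHO3, 0.57 to 1.01 for PHO11 (called without 180 min), 0.85 to 1.26 for the sum and -3.10 to -2.10 for the PHO3 to PHO5 ratio. PHO3 ranged from -0.52 to 0.03 at 105-180 against 15-90 (reversed without 180 min) and from -1.56 to -1.41 at 285-360 against 0. PHO12 ranged from 1.92 to 2.24 at 15-90 against 0 and from 0.97 to 1.29 at 285-360 against 15-90. At 30-60 against 0 PHO5 ranged from 1.05 to 1.37. The sum in the lull ranged from -0.34 to 0.08, reversing without 60 min (0.08), 105 min (0.07) or 120 min (0.06). The PHO3 to PHO5 ratio at 285-360 against 195-270 ranged from 0.14 to 0.32, called without 285 min. Calls over all genes at 285-360 against 0 fell from 1144 to 624 with quantile normalization and to 746 with centring, and at 30-60 against 0 from 174 to 93 without the 45 min library. In the lull they went from 98 to 41 without 45 min, 46 without 120 min and 210 without 135 min.

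A fit with a lag-1 correlation between consecutive samples was run for the 6 window comparisons, not for the phases, the course or the ratios. It changed no window call of PHO5, PHO11, PHO12 or the sum, and gave no value for PHO3, which lacks one at 345 min. It used 1 correlation for all genes, their median of 0.101. A stronger correlation in the members themselves was not allowed for, so the fit cannot show that their calls are free of it. The fit with every second sample was also run for the windows alone. No paired analysis was possible because each time has 1 library. Depth limits PHO3 most, at 26.5 to 115.1 recovered reads from 165 to 330 min.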
